A study of Mus musculus with 6 samples.

Results

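The genes described here are the 43 mouse genes of the mTOR complexes and of the machinery that tells them whether amino acids are present. They were chosen by name, as genes of the mTOR complexes, the TSC complex, the Rag GTPases, Ragulator, the folliculin complex, GATOR, the sestrins, the CASTOR proteins and the main mTORC1 substrates, and were found in the count table by matching its Ensembl identifiers to the GENCODE mouse annotation. All 43 were found among the 56953 genes of the table, and 42 passed the filter on low values (10 normalized counts or more in 3 libraries or more), as did 14096 genes in all. The exception was Seh1l, which was listed at 0 in each of the 6 libraries.

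RNA was sequenced from cultured MEFs, the fibroblasts that grow out of minced mouse embryos. There were 3 libraries labelled WT and 3 labelled GαqKO. The second line is a Gαq/11 knockout, lacking Gαq and Gα11, which are among the G protein alpha subunits that couple receptors to phospholipase C-β. Both kinds of cells were grown in DMEM with fetal bovine serum, penicillin and streptomycin. The study states 3 biological replicates per genotype, but both MEF stocks were obtained from another laboratory and the sources used here do not give the embryos or clones behind them, so a difference between genotypes and a difference between lines cannot be told apart. RNA-seq of such bulk samples also cannot tell fewer cells of a type from less RNA per cell.

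Some values bear on the labels and on how alike the lines were. Gna11, the gene of Gα11, was lower in GαqKO (log2 fold change −2.25 ± 0.06 SE, limma adjusted p = 9.16e-13). Gnaq, the gene of Gαq, was not lower but slightly higher (0.19 ± 0.04, adjusted p = 0.00212), so its RNA did not check the label, and counts over a whole gene do not tell an intact transcript from one with a deleted stretch. Below, WT and GαqKO mean the libraries so labelled. Of 9 fibroblast markers, all were detected in GαqKO, 4 were higher there and 5 lower. Col1a1, Col1a2, Col3a1, Vim and Fn1 were lower but abundant in both genotypes (Vim at a mean of 41785 normalized counts in WT and 33508 in GαqKO), and Pdgfrb was higher. Pdgfra, Dcn and Thy1 averaged 19.6, 32.1 and 0.70 in WT and 2319.7, 1663 and 64.9 in GαqKO. The 6 epithelial markers summed to 515 to 541 in WT, nearly all of it Cdh1 and Krt14, and to 10.1 to 23.1 in GαqKO. Means in WT and GαqKO were 238 and 7.96 for Cdh1 and 258 and 1.11 for Krt14. Krt8 averaged 17.3 and 0.72, Krt18 14.5 and 1.01, and Epcam 3.05 and 4.64. Krt5 was at or under 3 counts in all libraries. The 4 neural markers summed to 379 to 447 and 57.4 to 80.9, most of it Tubb3 (406 and 60.9). Gfap was not called, Elavl3 averaged 2.38 and 4.50, and Sox10 was at or under 3 counts. The 7 tested genes of the Y chromosome had a median log2 fold change of −8.21. Whole chromosomes differed as well: the median log2 fold change was −0.36 over 860 tested genes of chromosome 4, −0.28 over 667 of chromosome 10, 0.33 over 734 of chromosome 3 and 0.29 over 803 of chromosome 8. The part of these differences in the results that follow was tested only by subtracting the chromosome medians.

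mTOR is a protein kinase that works in a pair of complexes. mTORC1, built on raptor, raises protein synthesis and holds back autophagy when nutrients and growth factors are plentiful, and mTORC2, built on rictor, phosphorylates AKT and related kinases. Growth factor signals reach mTORC1 through the TSC complex, which switches off the small GTPase Rheb. Amino acid signals reach it through the Rag GTPases, heterodimers of RagA or RagB with RagC or RagD, which the Ragulator scaffold tethers to the lysosome and which carry mTORC1 there. GATOR1 inactivates the Rags, and GATOR2 opposes GATOR1. The sestrins SESN1 and SESN2 without leucine and CASTOR1 without arginine inhibit GATOR2, and folliculin with its FNIP partners acts on RagC and RagD. In fibroblasts, as in other cells, the system balances growth against lysosomal degradation. Most of this control is exercised on proteins, of which these RNA data hold no measurement.

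The Rag genes carried the largest change, and the sequences ahead of their start sites are shown because all 4 were lower in GαqKO, although Rraga and Rragc were not lower relative to their chromosome. The 250 bases before the start of the canonical transcript were read from GRCm39, on the strand of the gene, and are printed 5′ to 3′ as far as the first annotated transcript start. Capitals mark CACGTG, the core of the element bound by TFEB, TFE3 and MITF, the transcription factors that mTORC1 keeps out of the nucleus. The windows are chr4:86493655-86493904 for Rraga, chrX:151922590-151922777 for Rragb, chr4:123810975-123811216 for Rragc and chr4:32982734-32982983 for Rragd, all on the plus strand.
Rraga: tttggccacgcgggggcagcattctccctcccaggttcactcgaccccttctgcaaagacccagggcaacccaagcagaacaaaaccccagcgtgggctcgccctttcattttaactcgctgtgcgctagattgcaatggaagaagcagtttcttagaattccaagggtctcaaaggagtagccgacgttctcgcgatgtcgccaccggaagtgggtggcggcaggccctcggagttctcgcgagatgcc
Rragb: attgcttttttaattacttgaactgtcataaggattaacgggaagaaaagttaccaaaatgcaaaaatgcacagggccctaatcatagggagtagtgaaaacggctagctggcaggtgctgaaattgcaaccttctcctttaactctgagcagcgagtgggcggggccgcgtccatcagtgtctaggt
Rragc: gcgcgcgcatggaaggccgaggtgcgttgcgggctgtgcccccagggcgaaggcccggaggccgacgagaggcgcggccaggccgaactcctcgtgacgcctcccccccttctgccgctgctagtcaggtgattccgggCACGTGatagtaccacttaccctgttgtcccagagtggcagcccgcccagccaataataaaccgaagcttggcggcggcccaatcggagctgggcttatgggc
Rragd: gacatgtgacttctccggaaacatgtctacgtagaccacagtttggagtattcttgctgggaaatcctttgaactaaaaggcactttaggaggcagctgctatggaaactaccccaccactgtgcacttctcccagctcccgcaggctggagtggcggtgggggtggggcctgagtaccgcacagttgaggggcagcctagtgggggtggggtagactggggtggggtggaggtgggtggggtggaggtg
A shorter stretch of 30 bases at chrX:151922810-151922839 is shown because it holds the motif. It lies just ahead of the canonical start of Rragb but past the first annotated transcript start of the gene.
Rragb site: gaaatgagagcccgggcCACGTGatggcgg

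CACGTG lay at base −13 from the canonical start of Rragb and at base −111 from that of Rragc, and these letters were not in the windows of Rraga and Rragd. It was searched on both strands, where it reads the same. Over the whole set, 9 of the 43 windows held it, against 6.3% of 21664 windows of the same length ahead of protein-coding genes. CACGTG itself holds a CG, and most member windows had more CG dinucleotides than the median of 8 over all windows. The 6.3% was not matched for this, so the 2 shares are not like for like. The members with it were Castor1, Fnip1, Lamtor1, Lamtor4, Rragb, Rragc, Seh1l, Tbc1d7 and Tsc1, of which 4 were lower in GαqKO, 2 higher and 2 not called, besides Seh1l, which was not tested. TGATGNAA, the core of the element read by ATF4, was in the windows of Lamtor4 and Seh1l only, against 3.4% of all windows. CG dinucleotides numbered 17 in the Rraga window, 13 in that of Rragb, 24 in that of Rragc and 5 in that of Rragd, with a median of 8 over all windows. A match describes the letters and says nothing about binding.

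Over the set, 11 of the 42 tested members were higher in GαqKO at an adjusted p under 0.05 and 18 were lower, by limma on log2(normalized count + 1) in all 6 libraries with Benjamini-Hochberg adjustment over all 14096 genes. The background was high, since 31.8% of all tested genes were higher and 34.1% lower by the same rule, and the share called in either direction was 69.0% of the members and 65.8% of all genes. With a log2 fold change beyond 1 in size as well, 2 members were higher (Sesn1 and Fnip2) and 6 lower (Rragb, Rragd, Castor2, Prr5l, Castor1 and Sesn2), where 10.2% of all genes were higher and 10.5% lower past that threshold. WT and GαqKO libraries did not overlap in 31 of the 42, against 69.6% of all genes. The median log2 fold change was −0.07 over the members and −0.01 over all genes, and the median size was 0.28 and 0.39. As a list, therefore, the members were called about as often as genes at large, and the values of interest are those of particular members. Counts by role below are to be read against the same shares of all genes. Fold changes are on the log2(normalized count + 1) scale, where the added 1 makes changes of weakly expressed genes look smaller than they are, and are given as GαqKO against WT.

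**Figure D1:**
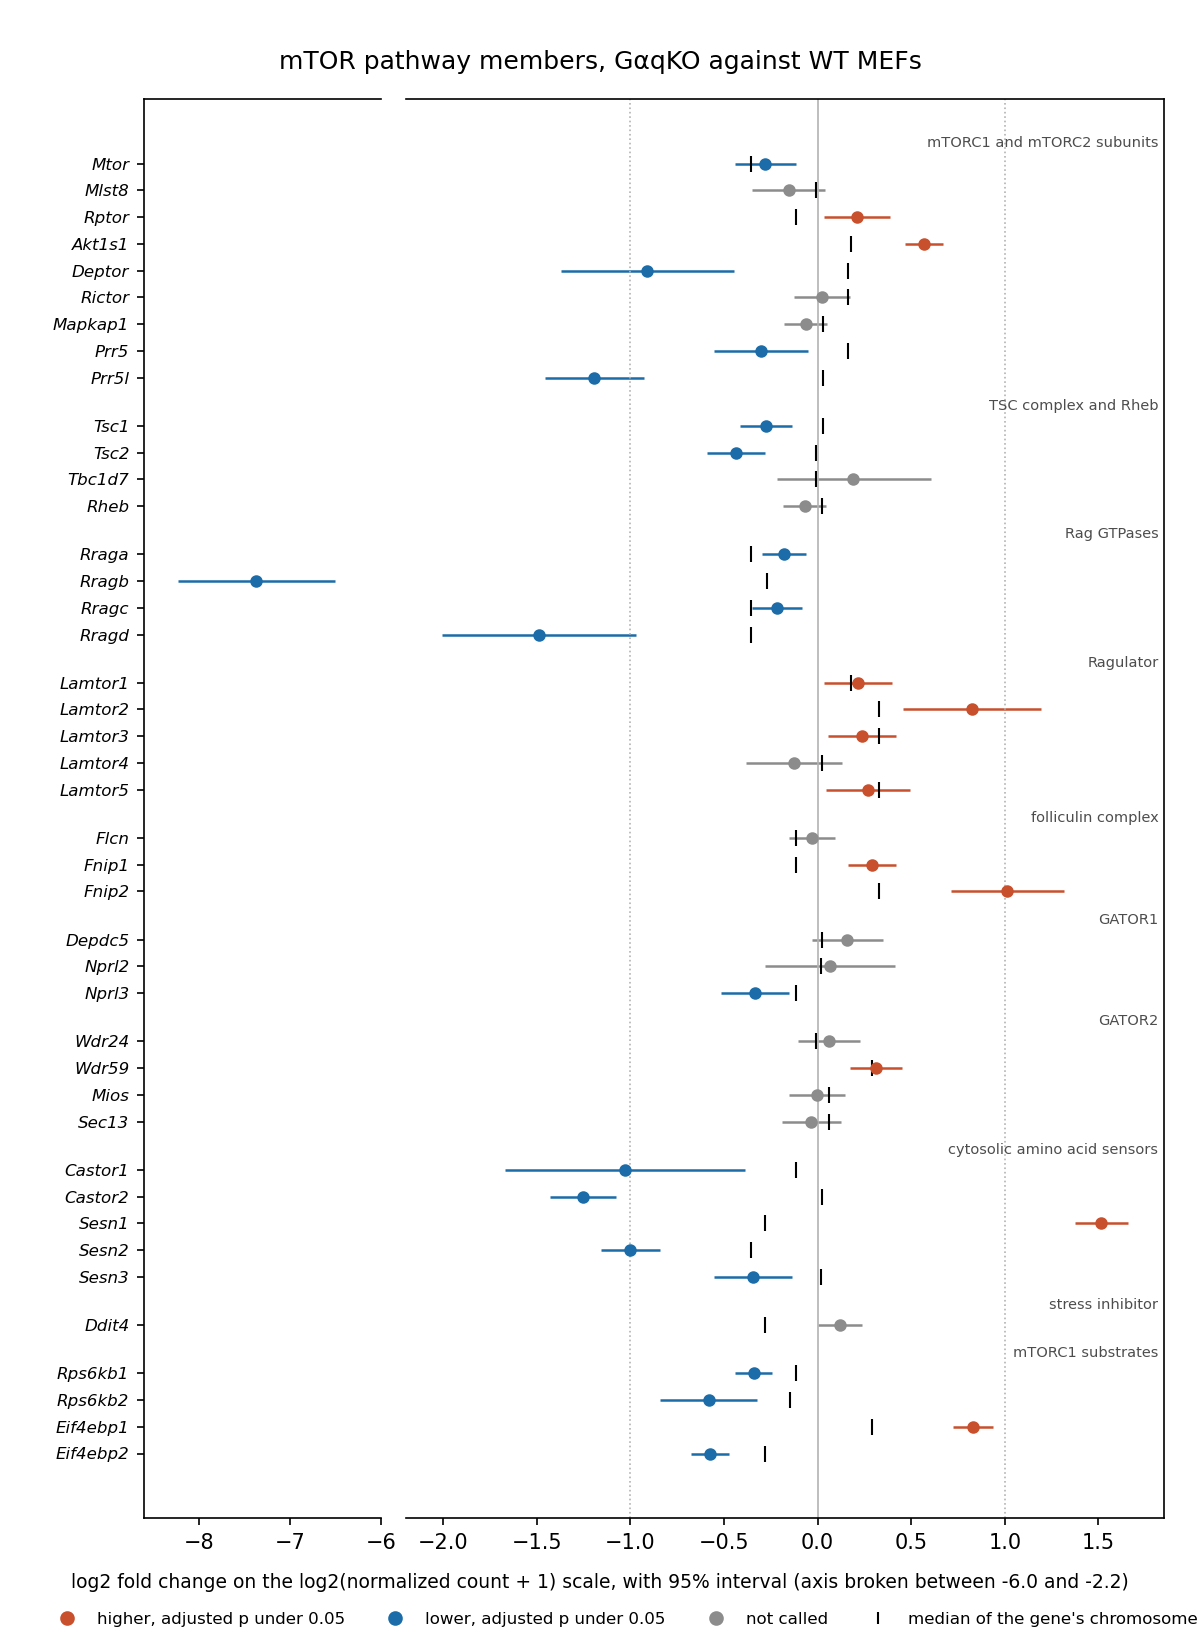
Log2 fold change of each of the 42 tested members, GαqKO against WT (x axis, log2 scale, with a break left of Rragd), with its 95% interval, grouped by role; colours give the call and black ticks the median log2 fold change of the gene's chromosome. Rragb lies far to the left at −7.37, Sesn1 is the highest at 1.51, and Mtor, Rraga, Rragc, Lamtor3 and Lamtor5 lie on the side of 0 of their chromosome's median but nearer to 0 than that tick.

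The Rag GTPases were lower in GαqKO in 4 of 4 cases, where 34.1% of all tested genes were lower. However, Rraga and Rragc turned positive once the median of chromosome 4 was subtracted. Rragb, the gene of RagB, was the member with the largest change. At chrX:151922778-151973198 it had 241, 219.5 and 242 normalized counts in WT replicates 1, 2 and 3 and 1.88, 0 and 0 in GαqKO replicates 1, 2 and 3, an order kept for every gene below. The groups stood wide apart, and the GαqKO libraries held 2 reads in all against 695 in WT. The ratio of the means was 374, with a 95% counting interval of 104 to 3091 that covers the 2 reads only and takes the WT level as measured. The fitted log2 fold change of −7.37 ± 0.40 (adjusted p = 1.65e-09) depends on the added count of 1. Rragb passed the filter on low values through its WT libraries only, so the counts rather than this p-value should be read.

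Rragd, the gene of RagD, is known as a target of TFEB and MITF and was the next most changed of the 4 Rag genes. Its values were 49.1, 51.5 and 43.8 in WT and 16.0, 18.5 and 15.1 in GαqKO. No library of one genotype reached the other, and the log2 fold change was −1.49 ± 0.24 (adjusted p = 9.35e-05). Rraga, the gene of RagA, had 2165, 2022 and 1872 against 1729.7, 1798 and 1808. That is a small difference, −0.18 ± 0.05 on the log2 scale (adjusted p = 0.00972), with the lowest WT library just above the highest GαqKO library. Rragc, the gene of RagC, had 1156, 1187 and 1129 against 909, 1058 and 1024, a log2 fold change of −0.22 ± 0.06 (adjusted p = 0.00633). With the chromosome median subtracted, Rraga stood at 0.17 (adjusted p = 0.0121), Rragc at 0.14 (adjusted p = 0.0603) and Rragd at −1.13 (adjusted p = 0.00067). Per kilobase of canonical transcript, Rraga was at 1248 normalized counts in WT and 1099 in GαqKO and Rragb at 97.8 and 0.26, so RagA RNA was the more abundant of the pair in both genotypes.

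Because Rragb was nearly absent from one line, the genes next to it were looked at, in a window of 1500 kb on each side that was chosen after its values were seen. It held 72 other annotated genes, with 46 at 0 in every library and 15 tested. Of those 15, 11 were lower in GαqKO, 1 was higher and 3 were not called. Over all tested genes 34.1% were lower, and the median log2 fold change was −0.27 over 484 tested genes of the X chromosome. With that median subtracted, Huwe1, Smc1a, Kdm5c, Tspyl2 and Nbdy lost their calls (limma adjusted p = 0.374, 0.308, 0.0789, 0.651 and 0.126). Iqsec2, Gpr173, 3010001F23Rik, Shroom2, Klf8 and Smt3h1-ps stayed lower, and Ubqln2 was then called higher (0.31, adjusted p = 4.79e-05). Klf8, a Krüppel-like repressor whose centre lies 153.2 kb downstream, had 273.6, 239 and 253 in WT and 4.70, 2.31 and 2.01 in GαqKO. Its fitted log2 fold change was −6.06 ± 0.28 (adjusted p = 2.81e-10), and Klf8, like Rragb, passed the filter through its WT libraries only. Mageh1, 127.4 kb upstream, had 19.8, 19.4 and 9.16 in WT and 0 in all 3 GαqKO libraries, at least 5.38-fold lower at a floor of 3 counts per library; it was under the filter and was not tested. Both nearest expressed neighbours were thus low in the same libraries as Rragb. Shroom2, an actin-binding protein gene 475.4 kb upstream, fell from 547 ± 29.2 to 56.9 ± 3.04 (SD, n = 3; log2 fold change −3.24, adjusted p = 1.01e-11). Ubqln2, a proteasome shuttle gene 334.9 kb downstream, had 3590, 3390 and 3260 against 3601, 3407 and 3503, overlapping values with a log2 fold change of 0.04 (adjusted p = 0.479). Hsd17b10, the mitochondrial dehydrogenase gene 1161.8 kb upstream, was the gene that was higher (0.65, adjusted p = 1.58e-06). Low counts at Rragb were therefore shared with the nearest expressed genes and not with Ubqln2; the DNA of these lines was not measured here.

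**Figure D2:**
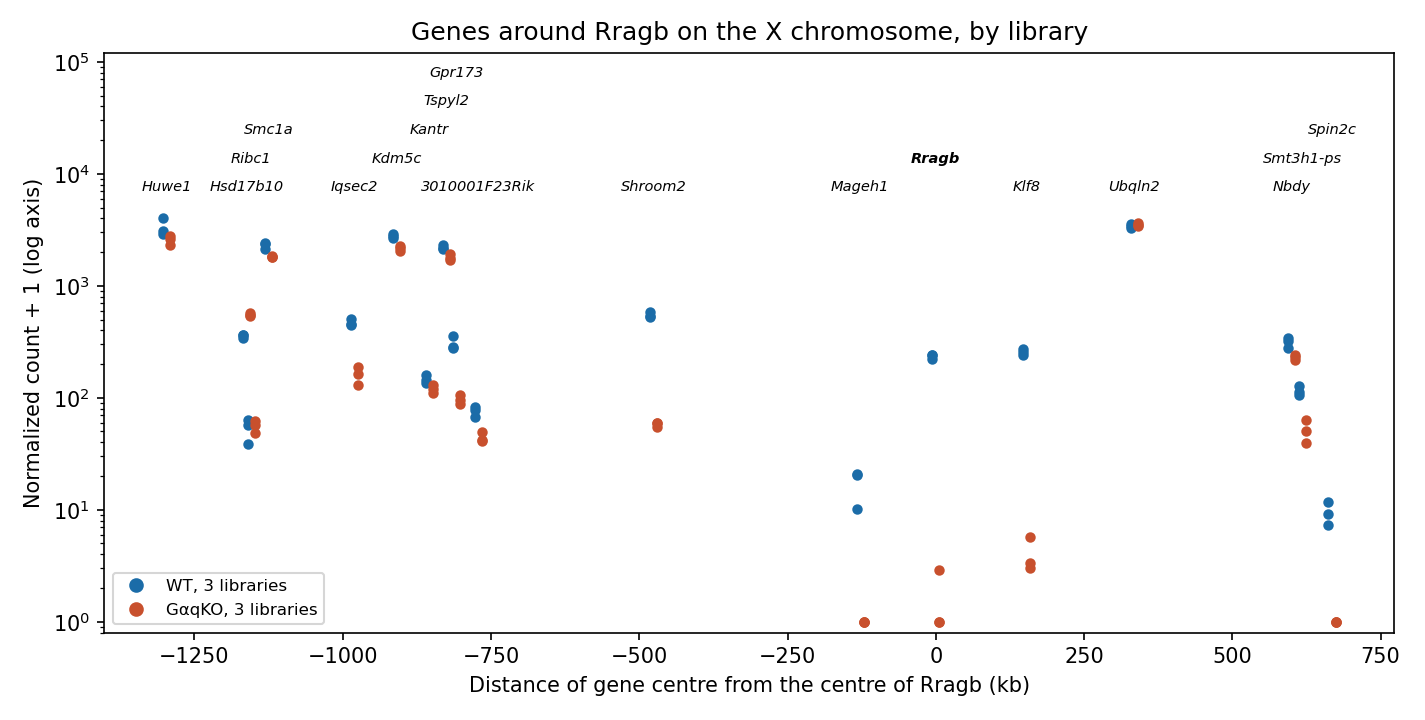
Normalized count + 1 (y axis, log scale) of Rragb and of the genes within 1500 kb of it that reached 5 normalized counts in a library, by distance between gene centres (x axis, kb), with 3 WT and 3 GαqKO libraries as points. Mageh1, Rragb and Klf8, next to each other, are near the bottom in GαqKO, while Ubqln2 is at the same level in both genotypes.

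The cytosolic sensors of amino acids, listed together with Castor2, were all called, 1 higher and 4 lower, where 65.8% of all tested genes were called. The proteins of Sesn1 and Sesn2 bind leucine and, without it, hold GATOR2 back. These genes respond to different stresses, Sesn1 to p53 and FOXO factors and Sesn2 to ATF4 and oxidative stress. Sesn1, at chr10:41685931-41784423, had 313, 304 and 285 normalized counts in WT and 879, 845 and 856 in GαqKO. Every GαqKO library was above every WT library, with a fold of 2.86 between the means and a log2 fold change of 1.51 ± 0.07 (adjusted p = 1.59e-10). This was against the direction of its chromosome, whose median was −0.28. Sesn2, at chr4:132219335-132237815, went the other way, with 706, 701 and 705 in WT and 363, 319 and 374 in GαqKO. Its WT libraries were nearly identical and its groups well apart (−1.002 ± 0.07, adjusted p = 3.46e-08), and it sat on the fold threshold and stood at −0.65 with the median of chromosome 4 subtracted. Sesn3, with 459, 525.5 and 596 against 449, 378 and 413, was the least changed of the 5 genes of this group. Its lowest WT library was only just above its highest GαqKO library (−0.35 ± 0.10, adjusted p = 0.00586).

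CASTOR1 is a cytosolic arginine sensor that releases GATOR2 when arginine is bound, and its paralog CASTOR2 binds GATOR2 but is not known as an arginine sensor. Castor2, at chr5:134128531-134173182, had 754, 761 and 895 in WT and 359, 338 and 311 in GαqKO. The genotypes were far apart, with a ratio of 2.39 between the means and a log2 fold change of −1.25 ± 0.08 (adjusted p = 1.14e-08). Castor1, at chr11:4168098-4172421, had 35.5, 37.9 and 41.7 in WT and 21.6, 11.6 and 24.2 in GαqKO. All 3 GαqKO libraries lay below WT, but they spread widely, and replicate 2 was the lowest (−1.03 ± 0.30, adjusted p = 0.00755). Without GαqKO replicate 2 the fit gave −0.72, still called but under the fold threshold. Castor1 was also under it with the median of chromosome 11 subtracted (−0.91, limma adjusted p = 0.0148). Per kilobase, Castor2 was above Castor1 in both genotypes, at 109 against 22.4 in WT and 45.6 against 11.2 in GαqKO.

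**Figure D3:**
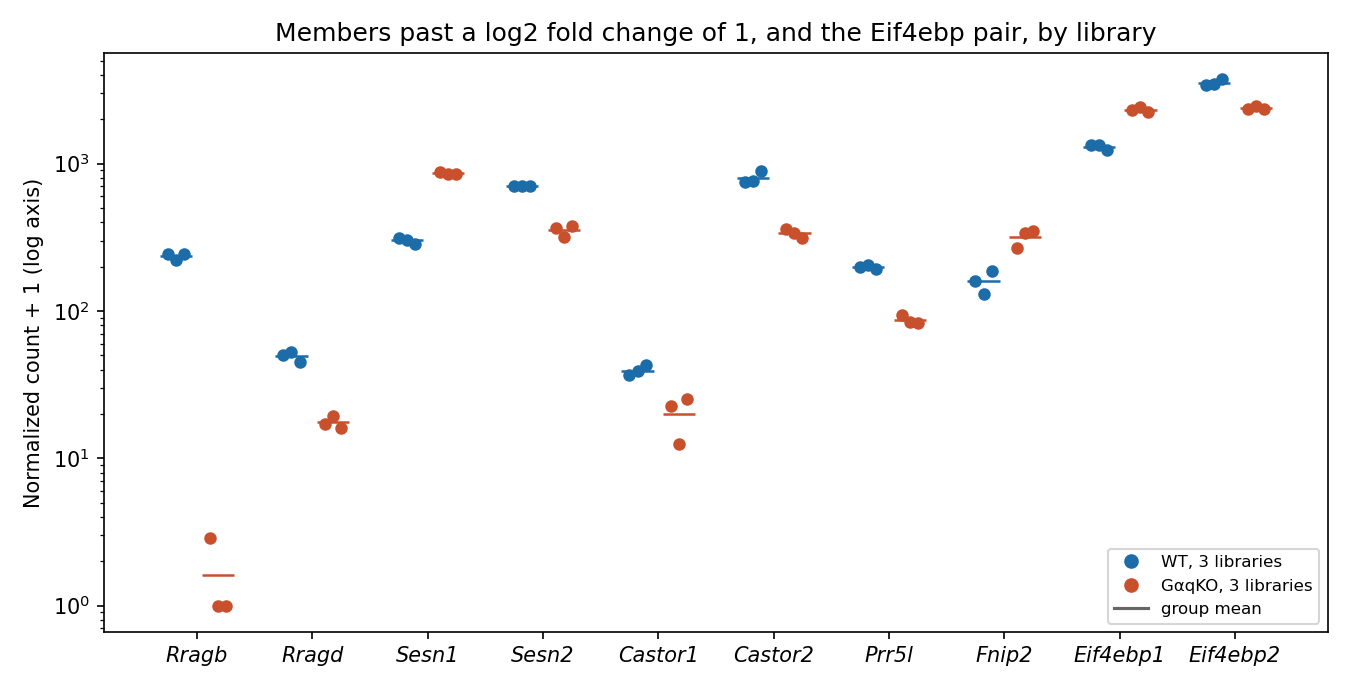
Normalized count + 1 (y axis, log scale) in each library for the 8 members past the fold threshold and for the Eif4ebp pair; points are the 3 WT and 3 GαqKO libraries and lines are group means. No gene shown has overlapping groups; Sesn1, Fnip2 and Eif4ebp1 are higher in GαqKO, and Rragb sits near the bottom of the axis there.

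Among the mTORC1 and mTORC2 subunits, 2 of 9 were higher, 4 lower and 3 not called. The 3 with the largest differences, Prr5l, Deptor and Akt1s1, are inhibitory or accessory subunits. Prr5l, an mTORC2-associated protein gene, had 197, 204 and 191 in WT and 93.0, 83.2 and 81.6 in GαqKO, a clean separation with a log2 fold change of −1.19 ± 0.12 (adjusted p = 1.2e-06). Deptor, which encodes an inhibitor of both complexes, had 98.2, 100.1 and 108 against 59.2, 70.5 and 37.3. It was lower in every GαqKO library, though these spread more than WT (−0.91 ± 0.21, adjusted p = 0.002). With the median of chromosome 15 subtracted, Deptor stood at −1.07 (limma adjusted p = 0.00069), past the fold threshold. Akt1s1, the gene of PRAS40, an mTORC1 inhibitor that AKT phosphorylates, had 1379, 1311 and 1274 against 1938, 1999 and 1944. Those libraries were all higher in GαqKO, by 0.57 ± 0.05 (adjusted p = 1.4e-07).

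The catalytic subunit gene Mtor was lower (−0.28 ± 0.08, adjusted p = 0.00482) but at 0.07 with the median of chromosome 4 subtracted. Rptor, the raptor gene, was higher by 0.21 ± 0.08 (adjusted p = 0.0364), with overlapping groups, and its call was lost in 4 of the 6 fits with a library left out. Prr5, the paralog of Prr5l, was lower by −0.30 ± 0.12 (adjusted p = 0.0335) and its call was lost in 4 of the 6 as well. Rictor, the scaffold of mTORC2, changed least, with 825, 914 and 1003 against 971, 891 and 916, overlapping values with an interval from −0.13 to 0.17 around 0.02 (adjusted p = 0.785). Mlst8, shared by both complexes, and Mapkap1, the mTORC2 gene that encodes SIN1, were not called (adjusted p = 0.148 and 0.299). For Mlst8, 42.5% of the canonical exon bases lie inside the span of another gene, and the strand setting of the counting is not stated.

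Of the TSC complex and Rheb, 2 of 4 were lower. Tsc2, the gene of tuberin, which turns Rheb off, had 513, 511 and 564 in WT and 402, 369 and 401 in GαqKO. The groups were apart by more than their spread (−0.44 ± 0.07, adjusted p = 0.00012). Tsc1, its hamartin partner, was lower by less (−0.28 ± 0.06, adjusted p = 0.00179). Rheb itself had 1283, 1426 and 1286 against 1279.9, 1279.96 and 1246, and its lowest WT library was just above its highest GαqKO library (−0.07 ± 0.05, adjusted p = 0.276, interval −0.18 to 0.05). Tbc1d7, the third subunit of the complex, averaged 59.6 and 67.4 and was not called (0.19 ± 0.19, adjusted p = 0.395).

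Ragulator, the scaffold that holds the Rags on the lysosome, had 4 of 5 genes higher in GαqKO, where 31.8% of all tested genes were higher. However, Lamtor3 and Lamtor5 fell to just below 0 with the median of chromosome 3 subtracted. Lamtor1 likewise lost its call with the median of chromosome 7 subtracted (0.04, limma adjusted p = 0.738). Lamtor2, which forms a heterodimer with Lamtor3, had 135, 104 and 77.4 in WT and 182, 179 and 186 in GαqKO. The GαqKO libraries were close together and all above WT, where the values spread widely (0.82 ± 0.17, adjusted p = 0.000761), and 0.50 was left after subtraction (adjusted p = 0.0235). Lamtor1, the membrane anchor of the scaffold, was higher by 0.21 ± 0.08 (adjusted p = 0.0367), Lamtor3 by 0.24 ± 0.08 (adjusted p = 0.0227) and Lamtor5 by 0.27 ± 0.10 (adjusted p = 0.0337). Those 3 calls were near the threshold, and each was lost in 3 or 4 of the 6 fits with a library left out. Lamtor4 had 235, 238 and 184 against 215, 188 and 195, with overlap (−0.13 ± 0.12, adjusted p = 0.365), and 53.4% of its canonical exon bases lie in the span of another gene.

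The folliculin complex activates RagC and RagD toward mTORC1, and in it the FNIP partners were higher while folliculin was not called. Fnip2, at chr3:79363280-79475188, had 158, 129 and 186 normalized counts in WT and 268, 339.9 and 346 in GαqKO. All GαqKO libraries exceeded all WT libraries, with a log2 fold change of 1.01 ± 0.14 (adjusted p = 2.13e-05) that sat on the fold threshold and was 0.69 with the median of chromosome 3 subtracted. For Fnip2, 53.7% of the canonical exon bases lie in the span of another gene. Fnip1 was higher by 0.29 ± 0.06 (adjusted p = 0.000761) on a chromosome whose median was below 0. Flcn, the folliculin gene, had 708, 669 and 690.1 against 669, 684 and 669.7, with overlap and an interval of −0.15 to 0.09 (adjusted p = 0.644).

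The GATOR complexes changed least. In GATOR1, the GTPase-activating complex for RagA and RagB, Nprl3 was lower, with 477, 437 and 545 in WT and 392, 365 and 395 in GαqKO and no overlap (−0.34 ± 0.09, adjusted p = 0.00335), although 63.6% of its canonical exon bases lie in another gene's span. Nprl2 had 126, 124 and 97.7 against 119, 102 and 145, fully interleaved (0.07 ± 0.16, adjusted p = 0.738). Depdc5, another GATOR1 subunit, was not called (0.16 ± 0.09, adjusted p = 0.129). In GATOR2, Wdr59 was higher, with 456, 495 and 464 against 577, 606 and 574 (0.31 ± 0.06, adjusted p = 0.000814), a difference close to the median of chromosome 8, which left 0.02 after subtraction. Mios had 456, 449.8 and 499 against 454, 476 and 468, the smallest difference of any member (−0.01 ± 0.07, adjusted p = 0.949). Wdr24 and Sec13 were not called (0.06, adjusted p = 0.49, and −0.03, adjusted p = 0.709). Seh1l, listed at 0, encodes a subunit shared with the nuclear pore, and 100% of its canonical exon bases lie in the span of another annotated gene.

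Ddit4, the gene of REDD1, a stress-induced inhibitor that acts through the TSC complex, had 1373, 1364 and 1351 in WT and 1401, 1439.5 and 1608 in GαqKO. Its groups did not overlap, but the difference of 0.12 ± 0.06 missed the threshold (adjusted p = 0.0736). On chromosome 10 that stood 0.40 above the median (adjusted p = 2.14e-05).

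The substrates of mTORC1 were all called, 1 higher and 3 lower, where 65.8% of all tested genes were called. 4E-BP proteins bind eIF4E and block cap-dependent translation until mTORC1 phosphorylates them. Eif4ebp1 had 1345, 1334 and 1241 in WT and 2331, 2413 and 2229 in GαqKO, and Eif4ebp2 had 3439, 3479 and 3738 against 2345, 2464 and 2339. The paralogs therefore moved in opposite directions with no overlap, by 0.83 ± 0.05 (adjusted p = 5.19e-09) and −0.58 ± 0.05 (adjusted p = 9.81e-08). For Eif4ebp1, 79.6% of the canonical exon bases lie in the span of another gene. With the medians of chromosomes 8 and 10 subtracted the differences were 0.54 and −0.29. S6 kinases, the other substrates, were both lower: Rps6kb2 had 328, 318 and 305 against 171, 225 and 245 (−0.58 ± 0.12, adjusted p = 0.000771, with 59.8% of its canonical exon bases in another gene's span), and Rps6kb1 had 2003, 2133 and 2141 against 1667, 1614 and 1672 (−0.34 ± 0.05, adjusted p = 1.79e-05). Neither S6 kinase gene had overlapping groups.

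Partner genes were compared within each library, as the log2 ratio of their normalized counts + 1. Away from low counts, this ratio hardly depends on the scaling of the libraries, and transcript length cancels in its change. At low counts it depends on the added count. The change of Rraga over Rragb was 7.19, but 7.94 with a pseudocount of 0.5 and 5.25 with 5. Of 11 pairs, 9 had ratios that did not overlap between genotypes, where 69.6% of single genes did not overlap, and each was at the smallest value that an exact two-sided permutation test of 3 against 3 can give (p = 0.1, Benjamini-Hochberg adjusted p = 0.122). So this design could not reach 0.05, and the sizes are what can be read. The ratio of Rraga to Rragb rose most, from 3.10 ± 0.14 to 10.29 ± 0.92 (SD, n = 3), where the GαqKO value rests on the added count of 1. Sesn1 over Sesn2 changed sign, from −1.23 ± 0.07 to 1.29 ± 0.11, as did Sesn1 over Sesn3, from −0.80 ± 0.26 to 1.06 ± 0.10. The sign of a single ratio, unlike its change, depends on transcript length. Per kilobase, Sesn1 was above Sesn3 in both genotypes (115.7 against 57.8 in WT, 330.8 against 45.3 in GαqKO). Sesn2, at 202 in WT and 101 in GαqKO, was above Sesn1 in WT and below it in GαqKO. Eif4ebp1 over Eif4ebp2 went from −1.44 ± 0.13 to −0.04 ± 0.03, and Rragc over Rragd from 4.56 ± 0.08 to 5.83 ± 0.14. The difference was 0.89 for Prr5 over Prr5l, −0.73 for Fnip1 over Fnip2, 0.19 for Rptor over Rictor, which was 0.10 without WT replicate 2, and 0.16 for Tsc1 over Tsc2. Castor1 over Castor2 (0.22, exact permutation p = 0.6, adjusted p = 0.6) and Rps6kb1 over Rps6kb2 (0.24, exact permutation p = 0.2, adjusted p = 0.22) overlapped between genotypes. They came to −0.02 without GαqKO replicate 3 and 0.54 without GαqKO replicate 2 for the former, and to 0.08 without GαqKO replicate 1 for the latter.

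**Figure D4:**
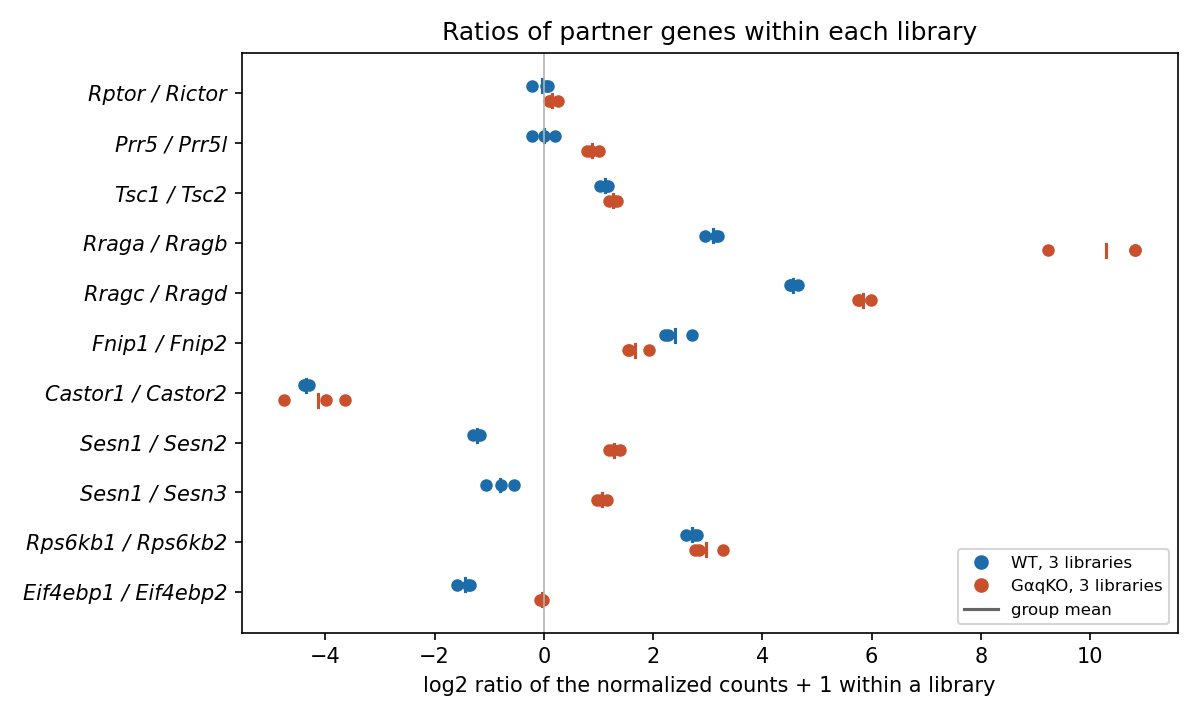
Log2 ratio of the normalized counts + 1 of 2 partner genes within a library (x axis), for 11 pairs, with 3 WT and 3 GαqKO libraries as points and short lines as group means. The ratios are not corrected for transcript length, so the side of 0 does not tell which gene has more transcripts. The Sesn1 ratios lie on opposite sides of 0 in the 2 genotypes, and the ratios of Castor1 to Castor2 and of Rps6kb1 to Rps6kb2 overlap.

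Levels between genes were compared per kilobase of canonical transcript, as group means that were not tested against each other. Rraga was the highest in WT at 1248 normalized counts per kilobase, followed by Akt1s1 at 799, Ddit4 at 774, Rheb at 746 and Eif4ebp1 at 652. In GαqKO the order was Akt1s1 at 1184, Eif4ebp1 at 1160, Rraga at 1099, Ddit4 at 842 and Rheb at 711. At the low end in WT were Rragd at 9.51, Deptor at 12.7, Fnip2 at 21.8 and Castor1 at 22.4, and in GαqKO Rragb at 0.26, Rragd at 3.26, Deptor at 6.91 and Castor1 at 11.2. Mtor, at 51.0 and 41.9, was below Rptor at 136 and 156 and Rictor at 98.1 and 99.4. The same 5 genes thus led in both genotypes, in another order.

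**Figure D5:**
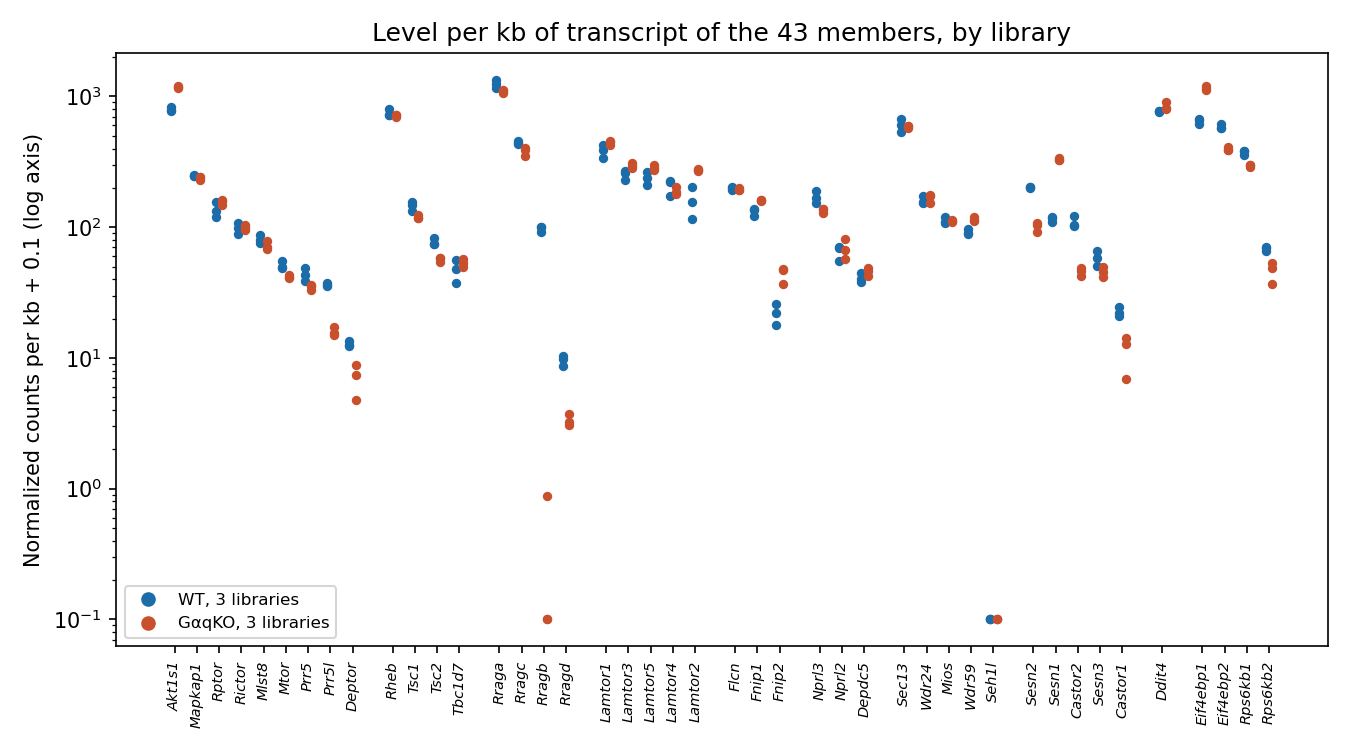
Normalized counts per kilobase of canonical transcript (y axis, log scale, with a small constant added so that 0 can be drawn) for the 43 members, grouped by role, with 3 WT and 3 GαqKO libraries as points. Rragb drops to the lower part of the axis in GαqKO, and Seh1l, listed at 0, lies at the bottom in both genotypes.

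Other genes of the pathway were taken as a list of 63, of which 59 were tested, with 24 higher, 23 lower and 12 not called; 3 were higher and 6 lower past the fold threshold. These are 40.7% higher and 39.0% lower, against 31.8% and 34.1% of all tested genes, or 79.7% called against 65.8%. All 3 genes of the TTT complex, which assembles mTOR and related kinases, were higher (Telo2 by 0.39, Tti1 by 0.51 and Tti2 by 0.86, adjusted p = 4.1e-05, 1.06e-06 and 3.21e-08). The 3 tested genes of the TFEB family were higher too, Tfeb by 0.29 and Tfe3 by 0.11 (adjusted p = 0.0266 and 0.0422). Mitf had 41.8, 60.2 and 59.0 in WT and 239, 279 and 285 in GαqKO, apart in all libraries (2.31 ± 0.16, adjusted p = 2.06e-08).

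In the insulin and PI3K arm, 6 of 15 genes were higher and 7 lower. Grb10, an adaptor that mTORC1 phosphorylates and that inhibits the insulin receptor, had 7678, 8063 and 8307 in WT and 2343, 2375 and 2276 in GαqKO (−1.78 ± 0.04, adjusted p = 5.98e-13). The insulin receptor substrates moved oppositely, Irs1 from 576, 637 and 821 to 1458, 1313 and 1381 (1.04 ± 0.10, adjusted p = 6e-07) and Irs2 from 1895, 1889 and 2013 to 980.3, 972 and 936 (−1.004 ± 0.05, adjusted p = 5.12e-10). Pik3r1, the regulatory subunit gene of PI3K, had 1054, 974 and 1118 against 497, 525 and 494 (−1.05 ± 0.06, adjusted p = 5.4e-09). None of these 4 genes had overlapping groups.

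Among KICSTOR and the other sensors at the lysosome, 3 of 10 tested were higher and 4 lower. Sar1b, whose product has been described as a leucine sensor, had 421, 507 and 418 in WT and 173, 175 and 179 in GαqKO (−1.34 ± 0.09, adjusted p = 2.58e-08), and Slc38a9, the lysosomal arginine sensor, was lower by less (−0.43, adjusted p = 0.00993). In energy sensing, 1 of 7 was higher and 4 were lower. Prkaa2, an AMPK catalytic subunit gene, had 17.8, 32.1 and 30.5 against 11.3, 4.63 and 10.1 (−1.56 ± 0.39, adjusted p = 0.00288). Downstream, 3 of 11 tested were higher and 5 lower, and Lpin1, a phosphatidate phosphatase gene, had 59.5, 52.5 and 95.7 against 181, 213 and 187 (1.52 ± 0.19, adjusted p = 1.09e-05). Of 9 genes made up of Atf4 and its targets, 5 were higher, Atf4 among them, and 2 lower. Chac1, a glutathione-degrading enzyme gene, had 633, 549 and 530.3 against 215, 306 and 288 (−1.09 ± 0.12, adjusted p = 2.17e-06). Sqstm1, the p62 scaffold gene, was lower (−0.25, adjusted p = 8.43e-05). Rnf152, Ddit4l, Eif4ebp3 and Tfec were under the filter.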

How the data were processed

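Poly-A RNA libraries of MEFs were prepared with a stranded kit and sequenced as paired ends. The authors aligned reads to GRCm39 with Rbowtie2, counted them with featureCounts on GENCODE M32 and used DESeq2; tool versions, strand setting and filters are not given in the sources used here. The signal they deposited is gene counts after division by each library's size factor; values sum to 11392429 to 11483486 per library. Whole reads were recovered in 5 libraries (9853000 to 12229175, 100.0% of nonzero values within 0.1 of a whole number), not in GαqKO replicate 3. Counting intervals and floors (3 counts) cover counting error only.

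Symbols and positions came from GENCODE M39, a later release than the authors' (98.9% of identifiers matched). limma 3.58.1 with a trend was fitted to log2(value + 1) over genes with at least 10 in 3 libraries, genotype as the only term, under R 4.3.3. Calls used an adjusted p under 0.05, and the fold threshold a log2 fold change over 1 in size. Ratios were tested by exact permutation in scipy 1.17.1. Alternatives covered scaling, chromosome medians, pseudocounts of 0.5 and 5, filters, the prior spread, a replicate block, edgeR 4.0.16 and DESeq2 1.42.0 on the recovered reads, and each library left out. Scripts were tested on simulated data. The members and lists were chosen with earlier results of these data known. Values per library are given for members past the fold threshold, called at 0.5 or more in size, or under the filter, for the most and least changed member of each role, and for other pathway genes past the fold threshold; genes named beyond these were chosen after their values were seen.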

Additional observations from a re-analysis of the deposited data

How the results depend on the processing

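No member changed its call under TMM scaling, either pseudocount or either filter, except that Rragb could not be tested with at least 10 in every library, nor without a WT library. Removing chromosome medians gave 1 member higher past the fold threshold in place of 2. Among members lower past it, this removal took out Castor1 and Sesn2 and brought in Deptor. It turned Mtor to 0.0749, Rraga to 0.174, Rragc to 0.137, Lamtor3 to −0.0882 and Lamtor5 to −0.0548. Lamtor1 and Wdr59 lost their calls and Ddit4 gained a call. A pseudocount of 5, edgeR and DESeq2 also left 1 member higher past the fold threshold, and leaving out each library gave 1 to 3, with 1 without WT replicate 2, GαqKO replicate 2 or GαqKO replicate 3 and 3 without WT replicate 1; members lower past it, 6 in all, numbered 5 under TMM scaling, 5 with chromosome medians removed, 5 with at least 10 in every library, 4 with the pseudocount of 5 and 4 to 6 with a library left out. DESeq2 on 5 libraries found 7 members higher in place of 11 and 16 lower in place of 18, without the calls of Mtor, Rptor, Prr5, Lamtor1, Lamtor3 and Lamtor5, and edgeR found 10 and 17, without those of Prr5 and Lamtor1. The cause was not tested. Without a trend in the prior spread, Rptor, Rraga, Lamtor1 and Lamtor5 were lost. With a library left out, Rptor, Prr5, Lamtor1, Lamtor3 and Lamtor5 lost their calls in some fits, and Ddit4 and Depdc5 gained one. The ratio of Castor1 to Castor2 differed by −0.022 to 0.538 with a library left out, and by −0.022 without GαqKO replicate 3; Rptor over Rictor was 0.0965 without WT replicate 2, and Rps6kb1 over Rps6kb2 0.082 without GαqKO replicate 1.

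With the replicate number as a block, 9 members were higher and 18 lower, and Rptor and Lamtor1 lost their calls. Deviations of same-numbered libraries correlated at −0.045, −0.148 and −0.064, which gives no sign that the numbers pair the libraries. With 3 libraries per genotype, these values cannot exclude a pairing. Depth limits what can be said of the genes at a few counts, Rragb in GαqKO among them, to counting intervals and floors.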
